A study of Mus musculus with 416 samples.

Results

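Potassium channels set the resting potential of a neuron, end its action potentials and space its firing. They are built from pore-forming subunits, which carry a selectivity filter in the pore loop, and from auxiliary subunits, which bind the pore and change its gating or its transport to the membrane. In the striatum the spiny projection neurons, divided by their dopamine receptor into a D1 and a D2 type, are known for a strong inward rectifier current that holds them near rest and for slowly inactivating and A-type currents that delay their spikes. Fast-spiking interneurons are known for the rapidly gated channels of the Kcnc subfamily. The genes described here are those protein-coding genes whose symbol consists of Kcn, lower-case letters and a number, and whose mean over all libraries was 1 CPM or more. CPM divides each count by its library's effective size (the total times its TMM factor) and gives it on a fixed scale. The name was met by 92 genes of a table of 46517 gene IDs, and 72 of them reached the level. The last members inside were Kcng4 at 1.055 CPM and Kcng2 at 1.14 CPM, and the first outside were Kcnk12 at 0.976 CPM and Kcnk4 at 0.855 CPM. Of the 20 below, 14 passed the filter on low counts used for the tests, and 6 did not, among them Kcna10, Kcnj1 and Kcne1.

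The levels come from ribosome-depleted total RNA of the striatum of 416 drug-naïve Diversity Outbred mice (strain label J:DO), a stock bred from several inbred founder strains in which every animal has its own mixture of their genomes. Each library is of a separate animal and carries a label for sex and for breeding generation. Libraries labelled female numbered 76, 60 and 72 in generations 21, 22 and 23, and libraries labelled male numbered 74, 59 and 75. All animals were untreated, their ages are not given in the labels, and sex and generation are the only contrasts the labels allow.

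Totals ran from 20331813 to 77458299 counts per library (median 43516366). The level of Xist went against the labelled sex in 29 libraries, and results between the labelled sexes are given with and without them. Counted separately, 29 libraries stood apart by a low total (1 library) or by a low correlation with the other libraries (28 libraries), 10 of them labelled female in generation 21. A list of 6 spiny neuron markers, among them Ppp1r1b, Rgs9, Pde10a, Bcl11b and Foxp1, averaged 9.66 ± 0.39 log2 CPM (SD, n = 416). Replicate 34 of the libraries labelled female in generation 21 went against the tissue label. It held Drd1 at 1.53 CPM, Drd2 at 1.53 CPM and Ppp1r1b at 13.9 CPM, beside 1352 CPM of Prkcd and 317.7 CPM of Tcf7l2, which mark thalamic neurons. Prkcd also stood at 533.7 CPM in replicate 1 of the same group. In replicate 35 of the libraries labelled male in generation 21 it stood at 916.6 CPM. Results that rest on the libraries standing apart are therefore given with and without them.

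All 61 pore-forming members carry the potassium channel selectivity-filter signature in their longest coding sequence of the GENCODE M21 annotation, and none of the 11 auxiliary members does. The signature of 5 codons was searched in frame, and 1.91% of 21569 protein-coding genes hold a match, most of them outside the name rule used here. Of 68 signatures in members, 47 have a tyrosine codon at the fourth place, 19 phenylalanine and 2 leucine, the last in the second pore loops of Kcnk1 and Kcnk6. All 7 measured two-pore members hold 2 signatures, in separate pore loops. The sequences below show the filter of members to which the results return, with 24 bases before it, the 15 bases of the signature in capitals, and 12 bases after it, on the coding strand. Kcnj4 lies on chromosome 15, Kcna4 and Kcnj3 on chromosome 2, Kcnd2 on 6, Kcnc2 on 10, Kcnh4 on 11, Kcnma1 on 14, Kcnj6 on 16, and Kcnk2 and Kcnj13 on 1.
Kcnj4: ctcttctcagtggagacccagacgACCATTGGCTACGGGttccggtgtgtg
Kcnj3: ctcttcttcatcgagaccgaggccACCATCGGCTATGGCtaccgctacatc
Kcnj6: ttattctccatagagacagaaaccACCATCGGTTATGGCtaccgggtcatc
Kcnj13: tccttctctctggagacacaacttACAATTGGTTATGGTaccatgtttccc
Kcna4: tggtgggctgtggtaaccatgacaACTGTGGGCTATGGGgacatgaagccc
Kcnd2: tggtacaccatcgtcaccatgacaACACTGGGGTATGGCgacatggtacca
Kcnc2: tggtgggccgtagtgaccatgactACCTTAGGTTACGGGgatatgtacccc
Kcnh4: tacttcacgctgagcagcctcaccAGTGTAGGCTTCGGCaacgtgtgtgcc
Kcnma1: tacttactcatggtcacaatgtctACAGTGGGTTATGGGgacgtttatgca
Kcnk2 loop 1: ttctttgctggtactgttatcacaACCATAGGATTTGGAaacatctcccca
Kcnk2 loop 2: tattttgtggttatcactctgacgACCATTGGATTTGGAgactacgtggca
In the 51 bases shown, Kcnj3 and Kcnj6 share 40 identical positions, Kcnj4 and Kcnj13 share 30, Kcna4 and Kcnd2 share 36, and Kcnj6 and Kcna4 share 23. The pair of loops of Kcnk2 share 31. Kcnh4, of the ether-à-go-go family, has phenylalanine where the other voltage-gated members shown have tyrosine, as do both loops of Kcnk2.

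Levels between genes are compared as RPKM, the CPM per kilobase of merged exon length. Voltage-gated pore subunits made up 44.6% of the summed mean RPKM of the 72 members (26 of 30 genes by name measured), auxiliary subunits 22.3% (11 of 15) and inward rectifiers 15.8% (12 of 15). Two-pore-domain leak channels made up 6.21% (7 of 14), channels opened by calcium, sodium or pH 5.80% (7 of 8), and silent or modifier subunits, which form no channel alone, 5.32% (9 of 10). The highest member was Kcnip2, a calcium-binding subunit of A-type channels, at 68.1 ± 9.72 RPKM (SD, n = 416), from 4.04 to 100.1 with a median of 68.4. Kcnj4, a strong inward rectifier, followed at 54.6 ± 7.54 RPKM. The A-type subunit Kcna4 stood at 51.4 ± 8.29 RPKM, the cytoplasmic beta subunit Kcnab1 at 49.5 ± 7.603 and the A-type subunit Kcnd2 at 49.4 ± 6.15. Next came Kcna1, a low-threshold delayed rectifier, at 37.01 ± 3.62 RPKM, and Kcnj10, a rectifier known from astrocytes and oligodendrocytes, stood at 32.99 ± 7.39.

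Neighbours in this order were often not separated by their spread. Kcnip2 exceeded Kcnj4 in 97.1% of 416 libraries and Kcnd2 exceeded Kcna1 in 94.7%. In contrast, Kcnj4 exceeded Kcna4 in 65.6% of libraries, Kcna4 exceeded Kcnab1 in 64.4%, and Kcnab1 exceeded Kcnd2 in 51%. Kcnj10 exceeded the beta subunit Kcnab2 (29.02 ± 5.435 RPKM) in 79.3% of libraries, and Kcnab2 exceeded the M-current subunit Kcnq3 (28.7 ± 3.50) in 46.4%. The order also depends on the length used, since with the length of the longest transcript Kcnab1 ranked 1, Kcnip2 2, Kcnj4 4, Kcna4 5 and Kcnd2 6.

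Within the subfamilies the fall from the leading member to the next was steep in some and slight in others. Among inward rectifiers Kcnj4 and Kcnj10 were followed by Kcnj2 at 17.6 ± 3.23 RPKM, the G-protein-gated Kcnj9 at 8.45 ± 3.75 and Kcnj3 at 5.28 ± 4.22, and Kcnj6 at 1.38 ± 1.27. The ATP-sensitive Kcnj11 stood at 1.64 ± 0.31 RPKM and Kcnj8 at 0.611 ± 0.16. Among two-pore leak channels Kcnk1 led at 24.6 ± 4.51 RPKM, Kcnk2 followed at 20.6 ± 3.78, and the acid-sensitive Kcnk9 and Kcnk3 stood at 0.335 ± 0.15 and 1.70 ± 0.72. Kcnt1 (20.6 ± 2.52 RPKM), opened by sodium, led the ion-gated channels, ahead of the small-conductance Kcnn3 (8.63 ± 1.25) and the large-conductance Kcnma1 (8.82 ± 0.93). Kcnh1 led the ether-à-go-go subunits at 15.5 ± 1.95 RPKM, and Kcnc1 the fast delayed rectifiers at 11.8 ± 3.79. The silent subunits were led by Kcnv1 at 12.7 ± 2.23 RPKM, Kcnf1 at 9.04 ± 2.08, Kcns2 at 7.65 ± 1.13 and Kcng3 at 7.25 ± 1.33. In further subfamilies the leading members were Kcnmb4 at 4.19 ± 0.89 RPKM, Kcne2 at 0.986 ± 3.13 and Kcnu1, known from sperm, at 0.335 ± 0.12.

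**Figure D1:**
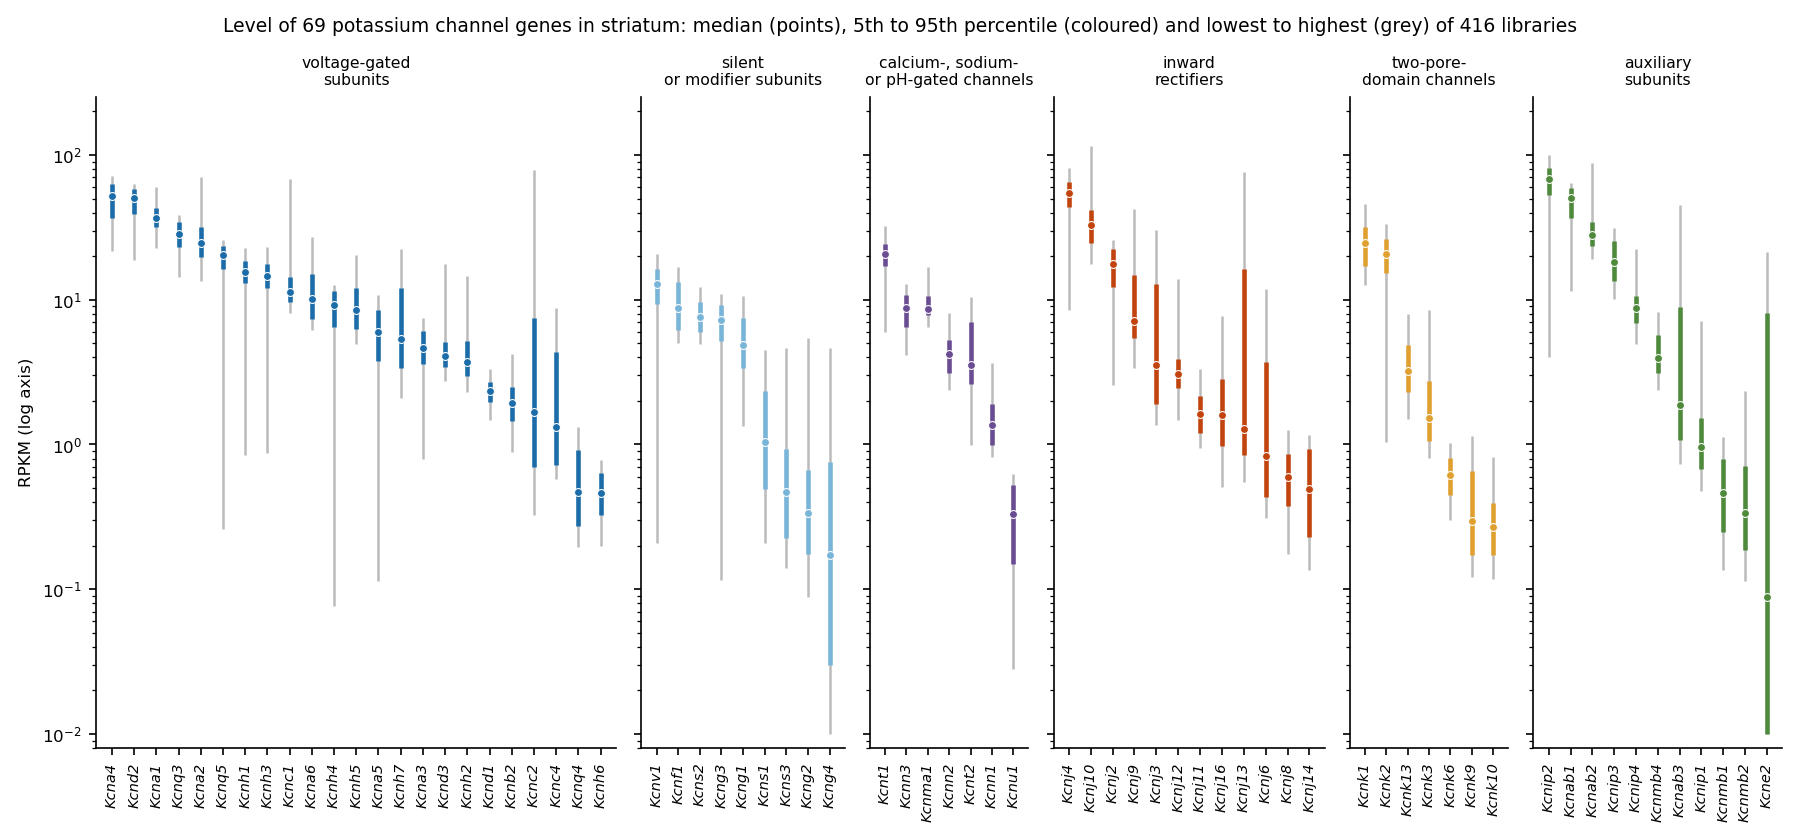
Level of 69 of the 72 members in RPKM on a log axis, by class, as the median (point), the range from the 5th to the 95th percentile (coloured bar) and the lowest to highest library (grey line) of 416. Values under 0.01 are drawn at 0.01, and the long grey lines below Kcnq5, Kcnh4, Kcnv1 and Kcng3 reach down to the lowest libraries.

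The spread between libraries differed widely among the members. The median SD of log2 CPM was 0.32 over the 72 members, 0.22 over the 17113 genes of 1 CPM or more, and 0.30 over all 22968 genes tested. Without the libraries standing apart these medians were 0.26, 0.20 and 0.28. The members were not set against genes of matched level, and the difference carries no test. The widest were Kcne2, an auxiliary subunit known from epithelia (SD 2.10), the silent subunit Kcng4 (1.32), the fast delayed rectifier Kcnc2 (1.15), the inward rectifier Kcnj13 (1.15) and the G-protein-gated Kcnj6 (1.02). With its low median, given below, Kcne2 met the mean of 1 CPM only through libraries where it was high. Its width therefore follows in part from the rule that admitted it. With a median of 1 CPM or more as the rule, 70 genes qualified. Among the narrowest were Kcnma1 (0.14), Kcna1 (0.14) and Kcnd1 (0.16), pore subunits found widely in neurons. Kcnma1 ran from 109.2 to 284.9 CPM with a median of 145.8, while Kcnc2 ran from 2.34 to 566.3 CPM with a median of 11.9. By subfamily the median SD was highest after Kcne (2.10, 1 member) in Kcns (0.64), Kcnc (0.58), Kcnu (0.57, 1 member) and Kcng (0.50), and it was 0.14 in Kcnma (1 member) and 0.20 in Kcnd.

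Much of that spread moved with 2 cell markers. Drd1 encodes the receptor of the D1 spiny neurons, and Slc17a7 a vesicular glutamate transporter of cortical excitatory neurons, which lie next to the dissected striatum. Slc17a7 gave r = 0.97 with the cortical marker list, which holds it, but also 0.807 with the hippocampal list and 0.484 with the thalamic list. Replicate 34 of the libraries labelled female in generation 21 held 332.6 CPM of Slc17a7 but 0.285 CPM of Neurod6, of the cortical list. Slc17a7 is thus no measure of cortex alone here. In bulk tissue fewer cells of a type and less RNA per cell cannot be told apart. After sex and generation, Drd1 and Slc17a7 together accounted for a median of 38.5% of the variance of the members, 5.07% over genes of 1 CPM or more and 3.41% over all genes tested. The share was highest for Kcnj6 (87.6%), Kcnc4 (84.7%), Kcnh4 (82.4%), Kcnj3 (81.4%) and Kcnq5 (80.6%). Without the libraries standing apart the medians were 22.3%, 2.59% and 1.78%. Kcnj6, Kcnc4 and Kcnj3 were then at 88.5%, 86.4% and 81.8%, while Kcnh4 was at 28.04% and Kcnq5 at 22.3%. With all libraries it was under 1% for Kcnk1, Kcnip3, Kcnk13, Kcnj8, Kcnj14, Kcnh6, Kcnu1, Kcnj13 and Kcne2.

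Drd1 ran from 1.53 to 405.6 CPM with a median of 309.7, and 1 library, replicate 34 of the libraries labelled female in generation 21, lay 5.25 below the next on the log2 CPM scale. Slc17a7 ran without such a gap from 1.92 to 637.4 CPM with a median of 31.2. The markers opposed each other (r = -0.453, rho = -0.708, r = -0.692 without the libraries standing apart). Members were correlated with each marker over the 416 libraries on log2 CPM (prior count 2), with 72 relations for each marker. Where no other value is given, the permutation p of r and of rho was 1e-05, the smallest that 100000 draws can give. After Benjamini-Hochberg adjustment over the relations with both markers it was 1.37e-05 for r and 1.38e-05 for rho.

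The highest correlations with Drd1 were those of Kcnh4 (r = 0.902, rho = 0.495), Kcnip2 (r = 0.891, rho = 0.657), the M-current subunit Kcnq5 (r = 0.889, rho = 0.528), the silent subunit Kcng3 (r = 0.868, rho = 0.581) and Kcnj4 (r = 0.805, rho = 0.584). Without the pair of libraries farthest from the median of Drd1, r was 0.741, 0.806, 0.695, 0.712 and 0.729 in that order. Without all the libraries standing apart it was lower, at 0.541, 0.674, 0.466, 0.606 and 0.607. Without replicate 34 of the libraries labelled female in generation 21 alone, r was 0.772, 0.800, 0.682, 0.702 and 0.748 in the same order. That library held Kcnh4 at 0.305 CPM against a median of 36.5, and Kcnip2 at 14.0 CPM against 237.8. By rank the highest was Kcnab1 (rho = 0.743, r = 0.798), which gave r of 0.792, 0.867 and 0.902 within generations 21, 22 and 23, followed by Kcna4 (rho = 0.686, r = 0.645) and Kcnd2 (rho = 0.661, r = 0.595). Drd1 itself gave r = 0.934 with the D2 spiny neuron list and 0.967 with the spiny neuron list. Kcnh4, Kcnip2, Kcnq5, Kcng3 and Kcnj4 gave 0.875, 0.862, 0.828, 0.83 and 0.802 with the D1 list, which holds Drd1. With the D2 list they gave 0.917, 0.881, 0.815, 0.858 and 0.879. These relations therefore do not tell the D1 type from the D2 type.

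For Kcnh1, Kcnv1 and Kcnj12 the sign with Drd1 rested on a few libraries. Kcnh1 gave r = 0.667 but rho = -0.094 (adjusted permutation p of rho 0.0643), and r was 0.186 without the farthest pair and -0.135 without the libraries standing apart. Kcnv1 gave r = 0.568 (adjusted permutation p 0.00173), rho = -0.239 and r = 0.001 without the farthest pair. Kcnj12, an inward rectifier, gave r = -0.257 (adjusted permutation p 0.00497) but rho = 0.227, and r was 0.061 without the farthest pair and 0.144 without replicate 34 of the libraries labelled female in generation 21 alone. Kcnh1 stood at 6.20 CPM and Kcnv1 at 0.956 CPM in their lowest library, against medians of 113.5 and 58.5 CPM.

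Among the lowest correlations with Drd1 were those of the fast delayed rectifier Kcnc1 (r = -0.754, rho = -0.567), the A-type subunit Kcnd3 (r = -0.685, rho = -0.430) and the auxiliary subunits Kcnip1 (r = -0.653, rho = -0.574) and Kcnab2 (r = -0.631, rho = -0.361). Without the farthest pair they were -0.698, -0.624, -0.689 and -0.540 in that order, and all were negative within each generation. Without the libraries standing apart they were -0.619, -0.409, -0.617 and -0.37. Kcnc1, Kcnd3 and Kcnip1 had their highest r among 16 cell marker lists with thalamic neurons (0.778, 0.707 and 0.708), or 0.544, 0.478 and 0.556 without the libraries standing apart. In replicate 34 of the libraries labelled female in generation 21, Kcnc1 stood at 641.9 CPM against a median of 106.5 CPM. It stood at 363.3 CPM in replicate 1 of the same group and at 447.9 CPM in replicate 35 of those labelled male in generation 21.

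Slc17a7 gave closer relations, and rank and linear values lay near each other. Kcnj6 (r = 0.937, rho = 0.951) and Kcnj3 (r = 0.894, rho = 0.904), which form G-protein-gated rectifiers together, the A-type subunit Kcnc4 (r = 0.919, rho = 0.930), the leak channel Kcnk9 (r = 0.845, rho = 0.852) and Kcnc2 (r = 0.822, rho = 0.840) were the highest. Within single generations r lay between 0.694 (Kcnc2, generation 21) and 0.957 (Kcnj6, generation 23), and without the libraries standing apart between 0.836 and 0.935. The lowest were Kcna4 (r = -0.686, rho = -0.699), Kcnab1 (r = -0.565, rho = -0.605), Kcnn3 (r = -0.523, rho = -0.488), Kcnd2 (r = -0.515, rho = -0.523), Kcnj4 (r = -0.508, rho = -0.620) and Kcnj2 (r = -0.508, rho = -0.536). Without the pair of libraries farthest on Slc17a7 the highest 5 lay between 0.818 and 0.939, and the lowest 6 between -0.679 and -0.495.

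On the linear CPM scale Kcnj6 followed Slc17a7 closely (r = 0.964). The line gave 3.15 ± 0.16 CPM (SE) at no Slc17a7 and 9.68 ± 0.13 CPM more per 100 CPM of it, or 3.54 ± 0.10 and 8.99 ± 0.10 without the libraries standing apart. Kcnj6 itself ran from 2.35 to 90.8 CPM with a median of 6.36. Kcnj3 gave 11.5 ± 0.53 CPM at no Slc17a7 and 21.1 ± 0.43 more per 100 CPM, Kcnc4 3.23 ± 0.08 and 4.58 ± 0.07, and Kcnk9 2.81 ± 0.05 and 1.72 ± 0.04. Kcnh7, an ether-à-go-go subunit, gave 67.8 ± 1.57 CPM at no Slc17a7 and 38.5 ± 1.28 more per 100 CPM. Kcnc2 followed less closely on this scale, with r = 0.487 over all libraries and 0.895 without the libraries standing apart.

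**Figure D2:**
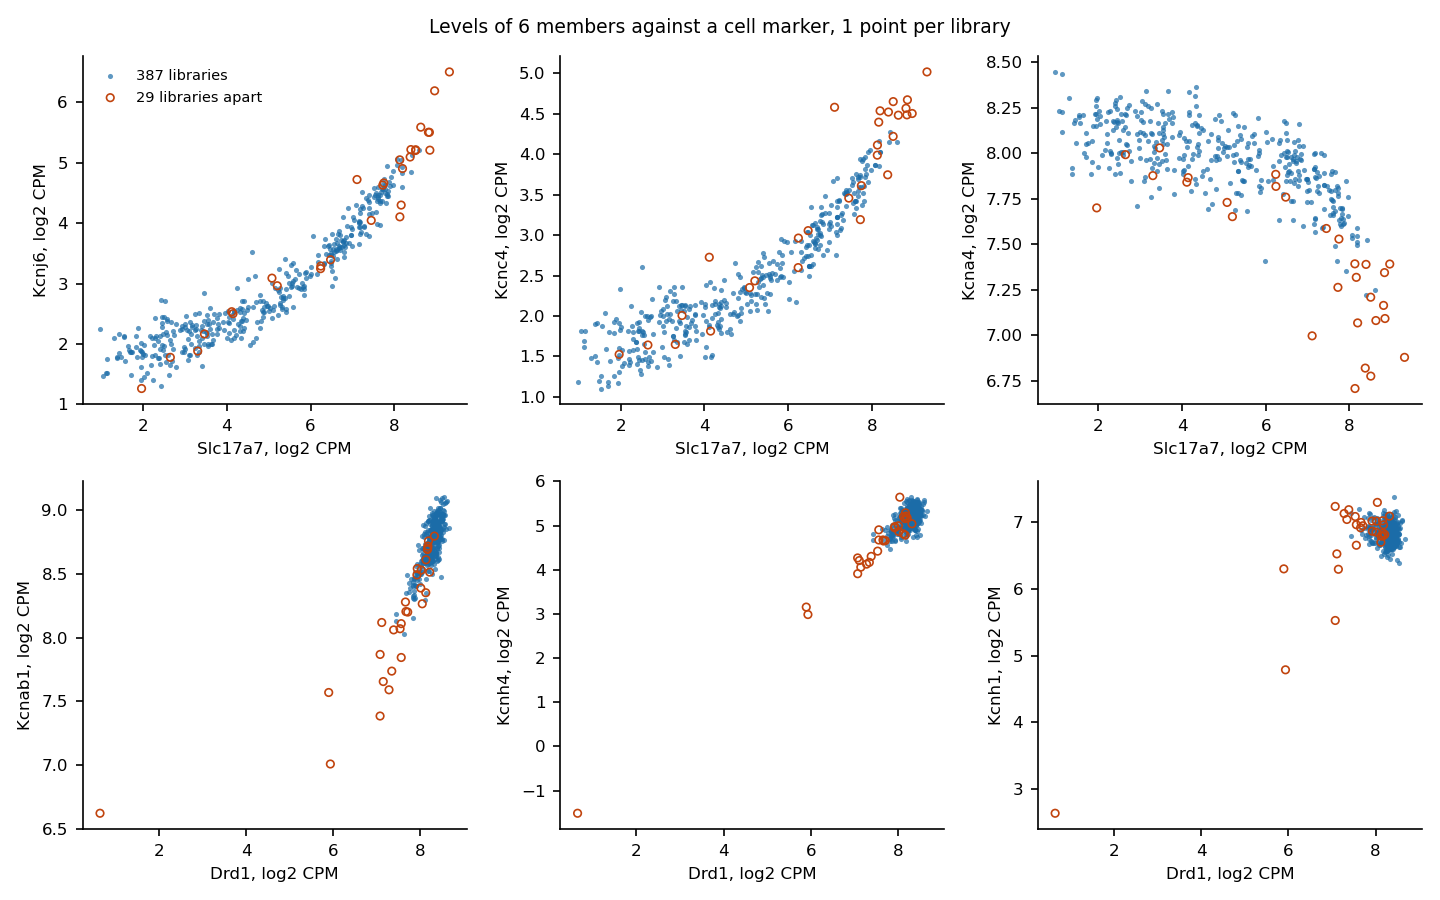
Log2 CPM of 6 members (vertical) against Slc17a7 (top row) or Drd1 (bottom row), with 1 point per library, open for the 29 libraries standing apart and filled for the others. Kcnj6 and Kcnc4 climb with Slc17a7 and Kcna4 declines, while the relations of Kcnh4 and Kcnh1 with Drd1 lean on 1 library at the far left and a few next to it.

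In the edgeR fits over all genes, with sex and generation as terms, 64 of 72 members (88.9%) had a slope on Drd1 past the threshold of 0.05 (Benjamini-Hochberg adjusted), 24 positive and 40 negative, against 63.7% of all genes (30.7% positive, 33% negative). For Slc17a7 it was 59 (81.9%), 38 positive and 21 negative, against 60.8% of all genes (27.9% positive, 33% negative). Here and in the comparisons below, the share of all genes includes genes under 1 CPM, and no genes of matched level were set beside the members. Of the 14 tested channel genes under that level, 8 (57.1%) had a slope on Drd1 and 7 (50.0%) on Slc17a7. Of 28 measured partner genes, which help channels or move ions beside them, 26 had a slope on Drd1 (9 positive, 17 negative) and 25 on Slc17a7 (16 positive, 9 negative). Slopes are log2 changes per SD of the marker's log2 CPM, which was 0.47 for Drd1 and 2.08 for Slc17a7. With Drd1 they ran from -1.20 ± 0.04 (SE) for Kcnc2 and -1.09 ± 0.05 for Kcnj6 to 0.37 ± 0.02 for Kcna5 and 0.38 ± 0.01 for Kcnh4. With Slc17a7 they ran from -0.20 ± 0.02 for the delayed rectifier Kcna5 and -0.19 ± 0.01 for Kcna4 to 1.01 ± 0.02 for Kcnj6 and 1.08 ± 0.04 for Kcnc2. Without the libraries standing apart the SDs of the markers were 0.19 and 2.005. Per SD of those remaining libraries the slopes on Drd1 were -0.64 for Kcnc2, -0.66 for Kcnj6, 0.15 for Kcna5 and 0.11 for Kcnh4. Per log2 unit of Drd1 they were -3.32 for Kcnc2, -3.44 for Kcnj6, 0.78 for Kcna5 and 0.59 for Kcnh4, against -2.55, -2.30, 0.79 and 0.81 with all libraries.

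By the signs of both slopes 20 members were positive on Drd1 and negative on Slc17a7, 37 were the reverse, and Kcnv1 was positive on both. The markers themselves opposed each other (rho = -0.708), and these pairs of signs were not counted over all genes. The split can therefore not be called particular to the members. The first set holds the leading members Kcnip2, Kcnj4, Kcna4, Kcnab1 and Kcnd2, and the second Kcnc1, Kcnc2, Kcnc4, Kcnj3, Kcnj6 and Kcnj9, and Kcnma1. Neither slope passed for Kcnk1, Kcnip3, Kcnk13, Kcnj8, Kcnj14, Kcnh6 and Kcnu1. With both markers in 1 fit the counts were 10, 28 and 5, and for Kcnip2 and Kcnh4 only the slope on Drd1 passed. With each marker alone and without the libraries standing apart they were 19, 35 and 0, and the slope of Kcnv1 on Drd1 became -0.06 ± 0.01, in place of 0.09 ± 0.02 with them. The slope of Kcnj12 on Drd1 turned too, to 0.04 ± 0.01 (edgeR adjusted p = 2.38e-05) without them, in place of -0.09 ± 0.01 with them. These slopes are per SD of the libraries in each fit.

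**Figure D3:**
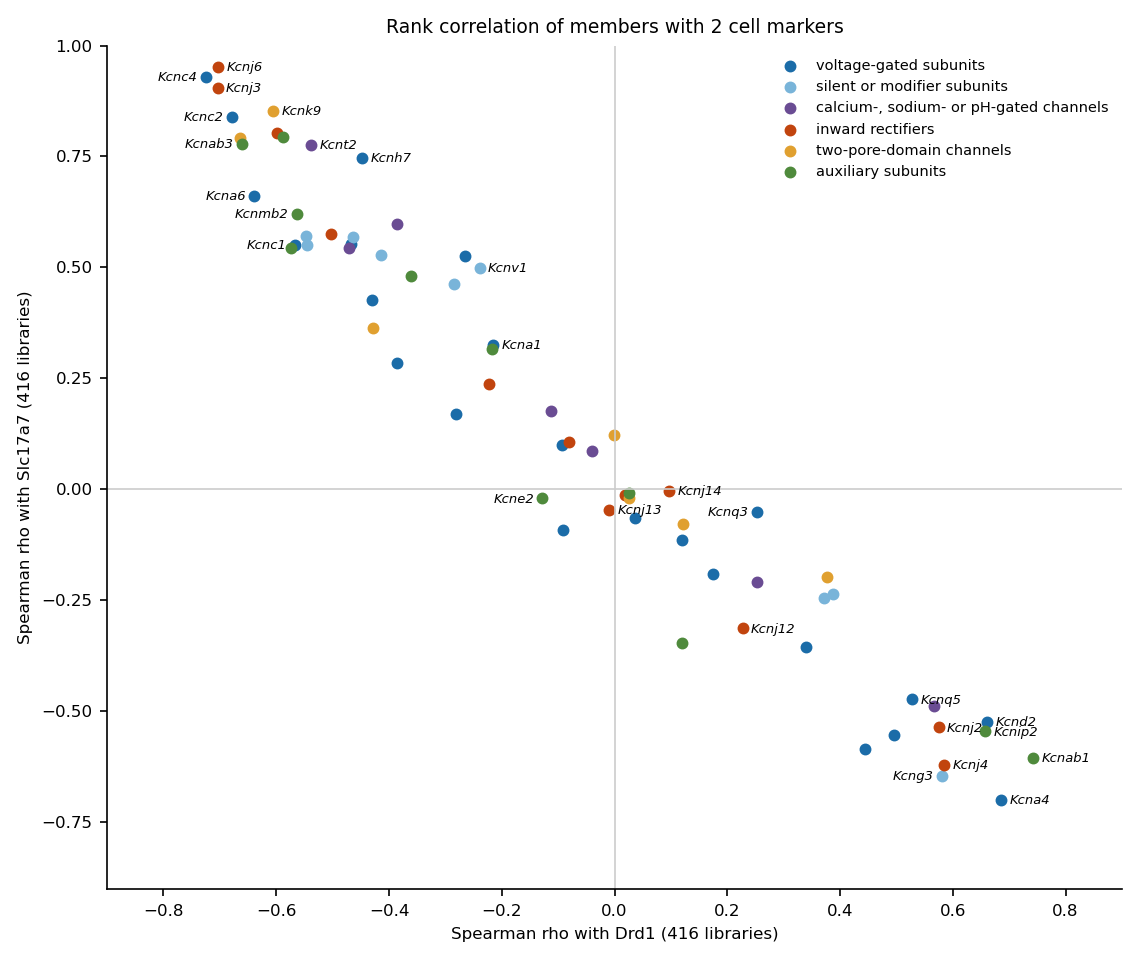
Spearman's rho of 69 of the 72 members with Drd1 (horizontal) and with Slc17a7 (vertical) over 416 libraries, coloured by class. Members run from the upper left, led by Kcnc4, Kcnj6 and Kcnj3, to the lower right, where Kcnab1, Kcna4, Kcnd2 and Kcnip2 lie.

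Distributions over the libraries differed in shape. Skewness of log2 CPM was above 1 in 15 members (20.8%), against 8.48% of genes of 1 CPM or more, and below -1 in 18 members, against 15.5% of those genes. The most skewed were Kcnq5 (-12.6), Kcnh1 (-8.93), Kcnh4 (-8.84), Kcnv1 (-8.38) and Kcng3 (-7.92), each with its lowest value far below the rest. Kcnq5 ran from 2.01 to 199.3 CPM around a median of 156.2, and without the libraries standing apart its skewness was -0.57. Without those libraries 2 members stayed above 1, Kcnj13 (3.04) and Kcne2 (1.91), and 1 below -1, Kcnu1 (-1.17), against 1.52% and 6.63% of genes of 1 CPM or more. A bimodality coefficient above 0.555 was found in 10 members (13.9%), against 4.31% of genes of 1 CPM or more. Without those libraries it was found in 5 members (6.94%), against 3.83% of those genes. Kcnj13 and Kcne2 were among both the 10 and the 5, while Kcnj6, Kcnab3 and Kcnt2 were among the 5 alone. The shape of Kcne2 follows in part from its admission through libraries where it was high.

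Kcnj13 and Kcne2, both known from the choroid plexus, the epithelium that secretes cerebrospinal fluid, divided the libraries. Kcnj13 ran from 0.703 to 97.5 CPM with a median of 1.63, and 46 libraries lay more than 4 scaled median absolute deviations above it. Kcne2 had a median of 0.155 CPM, so it met the level of 1 CPM only through libraries where it was high. It reached 37.8 CPM, was at 0 in 23 libraries, and was above by the same measure in 40. All 40 of these were among the 46, and all 40 were also high in Ttr, the defining choroid plexus transcript, which was above in 42 libraries and ran from 0.646 to 13850 CPM with a median of 8.14. They fell in every generation (14, 12 and 14 of them in generations 21, 22 and 23), and 14 of the 40 were libraries standing apart. As the libraries fall into separate clusters, no correlation over all of them is given.

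**Figure D4:**
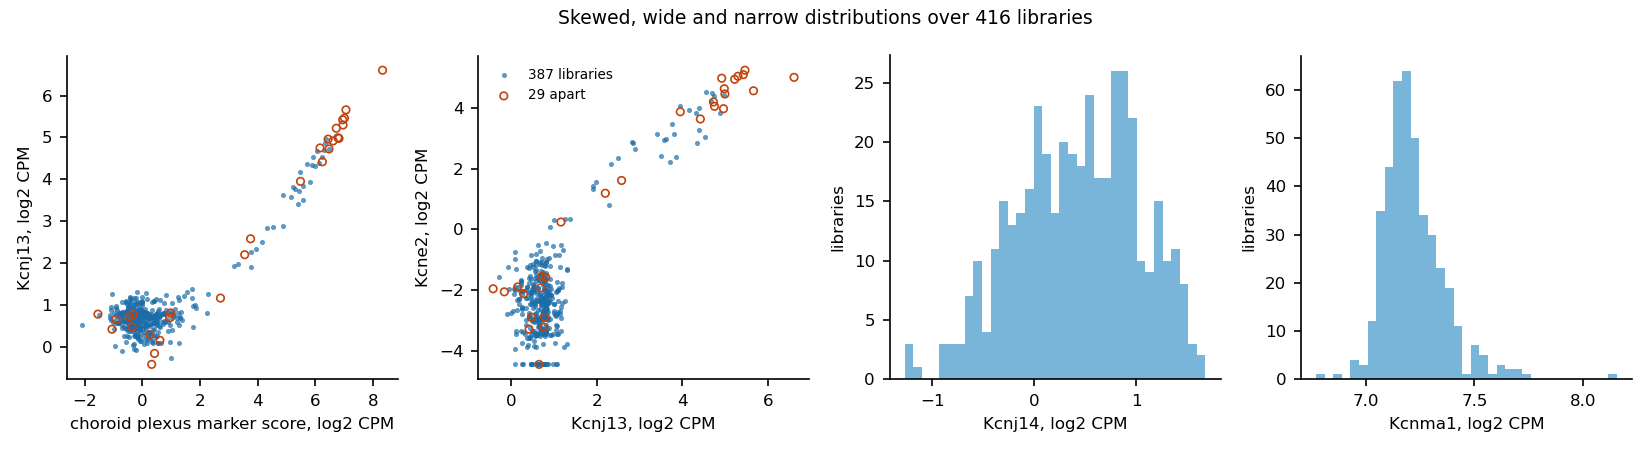
Left, log2 CPM of Kcnj13 against the choroid plexus marker score, and of Kcne2 against Kcnj13, with 1 point per library (open, the 29 standing apart). Right, histograms of log2 CPM of Kcnj14 and Kcnma1 in 416 libraries, where Kcnj14 is broad and without separate peaks and Kcnma1 is narrow.

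Kcnj14, an inward rectifier, and Kcnu1 were wide without following any cell list. Kcnj14 ran from 0.368 to 3.16 CPM with a median of 1.33 (SD of log2 CPM 0.60), and Kcnu1 from 0.106 to 2.35 CPM with a median of 1.24 (SD 0.57). Over the 16 cell marker lists the largest absolute r was 0.165 for Kcnj14 and 0.184 for Kcnu1. After sex, generation and both markers their SDs were still 0.60 and 0.56. Kcng4, at 0 to 17.7 CPM, was wider (SD 1.32) but followed several lists. It gave r = 0.639 with GABA interneurons, 0.620 with thalamic neurons and 0.521 with cortical excitatory neurons. The GABA interneuron list itself gave r = 0.853 with Slc17a7.

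Some members had their highest r among the cell marker lists with glial or lining cells, though not always a high one. Kcnk13, a leak channel known from microglia, gave r = 0.569 with the oligodendrocyte list (0.550 without the libraries standing apart) and r = 0.199 with the microglia list. Kcnmb1, known from smooth muscle as a subunit of large-conductance channels, gave r = 0.642 with the ependymal list, and 0.134 with the mural list. Kcnj10 gave r = 0.453 with oligodendrocytes, 0.430 with thalamic neurons and 0.383 with astrocytes. Kcnj8, known from mural cells, gave r = 0.239 with that list. These values carry no test and share their libraries.

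Among 18 pairs of subunits and partners, correlations over the 416 libraries were compared before and after sex, generation, Drd1 and Slc17a7 were taken out, with 100000 permutations and adjustment over the pairs. Kcnj3 and Kcnj6 gave the highest, r = 0.941 (rho = 0.907) and a partial r of 0.617, and were at r = 0.940 without the farthest pair of libraries. The other G-protein-gated pair, Kcnj3 with Kcnj9, gave 0.838 (rho = 0.751) and 0.382. Kcna4 with Kcnab1, which speeds inactivation of that family, gave 0.777 (rho = 0.587) and 0.431, and its partial r was 0.167 without the libraries standing apart. Kcnc1 with Pvalb, the marker of fast-spiking interneurons, gave 0.713 (rho = 0.644) and 0.525. Kcnd2 with Kcnip2 gave 0.599 (rho = 0.576) but a partial r of 0.198. For each of these the adjusted permutation p was 1.2e-05 for r and at most 0.00018 for the partial r. Pairs of members outside the 18 reached partial r of like size, among them Kcnab1 with Kcnd2 (0.707), Kcnt2 with Kcnh7 (0.644) and Kcnab3 with Kcnj3 (0.595). Those values carry no test.

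Kcnj2 with Kcnj4, the strong rectifiers of spiny neurons, gave r = 0.573 (rho = 0.328) and a partial r of -0.037 (adjusted permutation p 0.455), and r was 0.221 without the libraries standing apart. Kcnd2 with Dpp6, an A-type accessory protein, gave r = 0.478 (rho = 0.479) and a partial r of 0.435. With Dpp10, a relative of Dpp6, Kcnd2 gave r = 0.001 (rho = -0.105, adjusted permutation p of r 0.979) and a partial r of 0.04. Kcnj8 with Abcc9 and Kcnj11 with Abcc8, the rectifiers and sulfonylurea receptors of ATP-sensitive channels, gave 0.320 (rho = 0.319) and 0.295 (rho = 0.230), or 0.333 and 0.231 as partial r. Kcna1 with Kcna2 gave r = 0.558 (rho = 0.398) and a partial r of 0.480, which was 0.278 without the libraries standing apart. Kcna2 with Kcnab2 gave 0.534 (rho = 0.444), Kcnma1 with Kcnmb4 0.615 (rho = 0.523), Kcnd3 with Kcnip4 0.524 (rho = 0.274, and r = 0.278 without the libraries standing apart), and Kcnj10 with Kcnj16 0.377 (rho = 0.287). The partial r of these pairs was lower, at 0.394, 0.285, 0.358 and 0.185 in that order. Kcna2 with the axonal anchor Cntnap2 gave 0.066 (rho = 0.031, adjusted permutation p of r 0.187) with a partial r of 0.225 (adjusted permutation p 3e-05).

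Between libraries labelled female and male 2 of 72 members (2.78%) differed past the threshold, against 2.86% of all genes. Both were higher with the female label, as were 1.55% of all genes, while no member and 1.3% of all genes were lower. An unadjusted p under 0.05 by edgeR was found in 10 of 72 members and in 3952 of all 22968 genes. Kcnj10 ran from 103.98 to 627.7 CPM with a median of 181.6 in libraries labelled female, against 95.3 to 445.1 CPM with a median of 168.4 in those labelled male. Its mean was 184.6 ± 44.9 CPM with the female label and 172.2 ± 33.3 CPM with the male label (SD over animals). That is a log2 difference of 0.10 ± 0.03 (SE), with an adjusted p of 0.0165 by edgeR, and the groups overlapped almost fully. Kcnk1 averaged 56.6 ± 9.59 CPM with the female label and 53.4 ± 10.3 CPM with the male label (log2 difference 0.08 ± 0.03, edgeR adjusted p = 0.0446). Within generations 21, 22 and 23 the difference was 0.13, 0.07 and 0.09 for Kcnj10 and 0.09, 0.10 and 0.06 for Kcnk1. No member passed by edgeR in any of them alone, against 0.289%, 0.243% and 0.528% of all genes. In those fits 18, 5 and 6 members had an unadjusted p under 0.05, with no share of all genes set beside them. No partner gene differed by edgeR, though 5 of 28 had an unadjusted p under 0.05. Without the libraries whose Xist went against the label the same 2 members were called, against 4.75% of all genes in that fit. Without the libraries standing apart 7 were called, all higher in libraries labelled female, against 5.9% of all genes in that fit.

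The labelled-sex difference itself varied with generation in 2 members by the edgeR interaction test, against 0.322% of all genes. Kcnk10, a mechanically gated leak channel, averaged 2.72 ± 0.971 CPM with the female label and 2.35 ± 0.685 CPM with the male label in generation 21, 2.24 ± 0.55 and 2.61 ± 0.92 CPM in generation 22, and 2.35 ± 0.59 and 2.48 ± 0.57 CPM in generation 23. Its female minus male log2 differences were 0.22, -0.22 and -0.07 (edgeR interaction adjusted p = 0.00981). Kcng2, a silent subunit, gave 0.17, -0.58 and -0.00 (edgeR interaction adjusted p = 0.0491). In generation 22 it ran from 0.323 to 2.01 CPM in libraries labelled female and from 0.504 to 16.2 CPM in those labelled male, with medians of 0.856 and 0.932 CPM. Neither call held without the libraries standing apart.

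Between generations 23 and 21, 36 of 72 members (50.0%) differed, 21 higher and 15 lower in generation 23, against 58.3% of all genes (25.8% higher, 32.6% lower). The share of members was below that of all genes. Generation and anything handled together with it cannot be told apart. The median log2 difference was 0.01 over the members and -0.02 over all genes. By class 13 of 26 voltage-gated subunits differed (6 higher, 7 lower), 6 of 12 inward rectifiers (3 and 3), 5 of 11 auxiliary subunits (4 and 1), 5 of 7 two-pore channels (3 and 2), 4 of 7 ion-gated channels (3 and 1) and 3 of 9 silent subunits (2 and 1). Of 28 partner genes 17 differed (8 higher, 9 lower), among them the pacemaker channel Hcn4 (log2 difference -0.76 ± 0.09).

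The members that rose most between generations 23 and 21 were the G-protein-gated rectifiers Kcnj6 and Kcnj3 and 3 further pore subunits. Kcnj6 ran from 2.59 to 45.4 CPM with a median of 12.0 in generation 23, against 2.75 to 37.1 CPM with a median of 5.24 in generation 21. Its log2 difference was 0.78 ± 0.12 (edgeR adjusted p = 2.02e-09), and the groups overlapped over most of their range. Kcnh7 averaged 122.6 ± 47.7 CPM in generation 23 and 74.1 ± 30.8 CPM in generation 21 (log2 0.73 ± 0.06, edgeR adjusted p = 4.21e-27), and Kcnj3 34.8 ± 19.9 CPM in generation 23 and 22.02 ± 21.2 CPM in generation 21 (log2 0.66 ± 0.11, edgeR adjusted p = 8e-09). Kcnc4 (0.47 ± 0.10) and the sodium-gated Kcnt2 (0.44 ± 0.05) completed the 5. The cortical excitatory marker list stood at 3.22 log2 CPM in generation 23 and at 1.74 in generation 21, and all 5 of these members had a positive slope on Slc17a7. With Drd1 and Slc17a7 as covariates the difference was 0.02 ± 0.04 for Kcnj6 (edgeR adjusted p = 0.71), 0.34 ± 0.04 for Kcnh7, 0.16 ± 0.05 for Kcnj3 and 0.10 ± 0.04 for Kcnt2, and for Kcnc4 the sign turned, to -0.11 ± 0.04 (edgeR adjusted p = 0.0134).

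The members that fell most were Kcnmb1 (log2 difference -0.30 ± 0.05, edgeR adjusted p = 3.55e-07), Kcna5 (-0.25 ± 0.04), the ether-à-go-go subunit Kcnh2 (-0.24 ± 0.03), the inward rectifier Kcnj12 (-0.24 ± 0.03) and Kcnj4 (-0.18 ± 0.02). Kcnj4 ran from 87.7 to 136.7 CPM with a median of 111.1 in generation 23, against 18.2 to 175.98 CPM with a median of 126.3 in generation 21. Kcnmb1 averaged 1.80 ± 0.51 CPM in generation 23 and 2.21 ± 0.84 CPM in generation 21, where the ependymal list stood at 1.32 and 1.58 log2 CPM in that order of generations, and its part in the result was not tested. With the marker covariates these 5 stayed below 0, at -0.19, -0.17, -0.19, -0.15 and -0.15, and all passed. They were also lower in libraries of each labelled sex alone. The covariates hold no choroid plexus or ependymal marker. The choroid plexus list stood at 0.374 log2 CPM in generation 23 and 0.919 in generation 21, and Kcna5 gave r = 0.458 with the ependymal list. The part of either list in these differences was not tested. With the covariates 36 members were called in all, 14 higher and 22 lower in generation 23, against 54.9% of all genes. Of these, 24 were also called without the covariates, 22 in the same direction, while Kcnc4 and Kcnmb4 had the opposite sign.

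**Figure D5:**
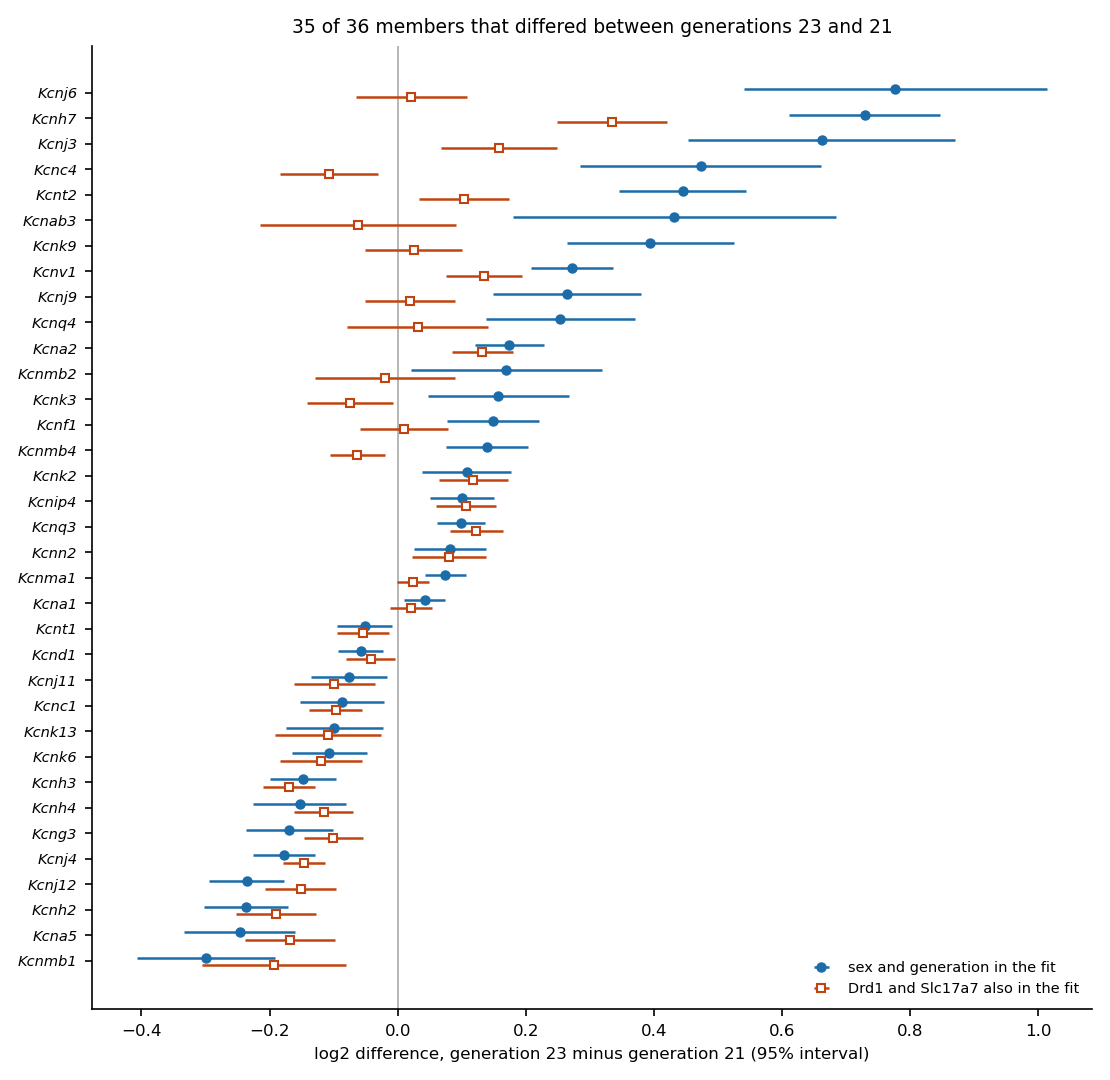
Log2 difference between generations 23 and 21 (horizontal, with 95% intervals) of 35 of the 36 members that differed, with sex and generation in the fit (filled circles) and with Drd1 and Slc17a7 as further covariates (open squares). Kcnj6, Kcnk9, Kcnj9 and Kcnab3 move to near 0 with the covariates, while the 14 members drawn below 0 stay below 0.

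Between generations 22 and 21, 31 members (43.1%) differed, 14 higher and 17 lower in generation 22, against 46.6% of all genes (22.1% higher, 24.5% lower), and 16 of 28 partner genes did (7 higher, 9 lower). Kcnh7 (0.35 ± 0.06), Kcnj6 (0.30 ± 0.13), Kcnt2 (0.22 ± 0.05), Kcnv1 (0.20 ± 0.03) and Kcnu1 (0.18 ± 0.06) were the highest. The lowest were Kcnc2 (-0.46 ± 0.16), Kcns1 (-0.20 ± 0.08), Kcnj12 (-0.19 ± 0.03), Kcnh2 (-0.17 ± 0.04) and Kcnj8 (-0.16 ± 0.05). Kcnc2 ran to 92.7 CPM with a median of 9.50 in generation 22, against 566.3 CPM with a median of 9.82 in generation 21. Without the libraries standing apart its difference was 0.24 ± 0.12 (edgeR adjusted p = 0.0923). With Drd1 and Slc17a7 as covariates 40 members were called, 14 higher and 26 lower in generation 22, against 47.2% of all genes. Kcnj6 was at -0.01 ± 0.04 in that fit (edgeR adjusted p = 0.849), and it kept its call and direction in 4 of 10 alternatives. It was not called in libraries labelled female alone (-0.02 ± 0.17) and was in those labelled male (0.63 ± 0.19), a contrast that is not among the members called for the interaction.

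Between generations 23 and 22, 28 members (38.9%) differed, 19 higher and 9 lower in generation 23, against 18.2% of all genes (8.53% higher, 9.63% lower), and 8 of 28 partner genes did (5 higher, 3 lower). The beta subunit Kcnab3 was highest (0.60 ± 0.14), at 11.2 ± 9.002 CPM in generation 23 and 7.36 ± 7.64 CPM in generation 22. Kcnc2 (0.58 ± 0.16), Kcng4 (0.54 ± 0.17), Kcnj6 (0.47 ± 0.13) and Kcnj3 (0.44 ± 0.11) followed. The lowest were Kcnmb1 (-0.22 ± 0.06), Kcna5 (-0.14 ± 0.05), Kcna4 (-0.13 ± 0.03), Kcng3 (-0.13 ± 0.04) and Kcnj2 (-0.10 ± 0.04). Over the same generations the cortical excitatory list stood at 3.22 and 2.204 log2 CPM, and the GABA interneuron list at 4.25 and 3.96. With Drd1 and Slc17a7 as covariates 1 member, the small-conductance channel Kcnn3, was called in place of 28, and it was none of the 28, while 6.25% of all genes were called in that fit.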

How the data were processed

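Striatal RNA of 416 mice was sequenced as ribosome-depleted stranded paired-end libraries, per the labels' protocols. The deposited values are estimated counts per gene as the authors made them, since 23.8% of them are not whole. The aligner, counter, annotation and build are not given in the sources used here. The estimated counts were taken to the nearest integer, with a summed change of 0.005% of all counts, and 0 columns of per-sample values were left unmapped. Gene lengths and names came from GENCODE M21, which matched 98.9% of the gene IDs.

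Tests were edgeR quasi-likelihood fits (version 4.0.16, R 4.3.3, TMM factors, robust) with sex and generation as terms, over the 22968 genes that passed a filter on low counts (minimum count 10), with Benjamini-Hochberg adjustment over all of them and a threshold of 0.05. Log2 CPM used a prior count of 2. A library stood apart if its total was under 0.5 of the median, or if its median correlation with the other libraries lay more than 4 scaled median absolute deviations (factor 1.4826) below. Xist at 100 CPM set the check of the labelled sex. The fits and permutation tests were tested on simulated data. Each library is a separate animal, so p-values measure the spread between animals.

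Any measured member could be named. Full statistics were given for the highest member of each subfamily, the 5 highest and lowest in correlation with each marker, the widest and narrowest 5, the 5 most skewed, up to 5 per direction in each labelled comparison, the members called for the interaction, and the listed pairs. The members and lists were chosen with earlier results of these data known. Alternatives were limma voom (3.58.1), DESeq2 (1.42.0), RLE size factors, no filter, other prior counts, covariates, and subsets of libraries. Rank correlation, the correlations, spreads and marker shares without the libraries standing apart, and the correlations without 1 library were added after seeing the data. Of the 72 members, 3 are counted but not reported here by name, nor are the pairs that hold them.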

Additional observations from a re-analysis of the deposited data

Results flagged for a closer look

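The difference between the labelled sexes varied with generation for Kcnk10 and Kcng2, by the edgeR quasi-likelihood interaction test. For the leak channel Kcnk10 the Benjamini-Hochberg adjusted p was 0.00981, with female minus male log2 differences of 0.22, -0.22 and -0.07 in generations 21, 22 and 23. For the silent subunit Kcng2 the edgeR adjusted p was 0.0491, with differences of 0.17, -0.58 and -0.00. In generation 22 Kcng2 averaged 0.934 ± 0.351 CPM in libraries labelled female (n = 60) and 1.37 ± 2.28 CPM in those labelled male (n = 59), where 1 library held 16.2 CPM. Over 7 alternatives Kcnk10 kept its call in 3 and Kcng2 in 1.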

How the results depend on the processing

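The count of members differing between the labelled sexes was 2, 1 with no filter on low counts, 7 without the libraries standing apart, and 0 in generations 21, 22 and 23 alone. Between generations 23 and 22 it was 28, 1 with Drd1 and Slc17a7 as covariates, 8 in libraries labelled female alone and 4 in those labelled male alone. The interaction count was 2, 1 with no filter or without libraries whose Xist went against the label, and 0 with limma voom, without the libraries standing apart, with the markers as covariates, or with total count and mitochondrial share as covariates, where 4, 3, 4 and 3 members had an unadjusted p under 0.05. Skewness above 1 was found in 15 members and in 2 without the libraries standing apart, and skewness below -1 in 18 and in 1. The cause of these changes was not tested, though subsets hold fewer libraries. The other alternatives left counts within 1.5 times, at 25 to 47 members between generations 23 and 21, 21 to 40 between 22 and 21, 56 to 65 for the slope on Drd1 and 52 to 60 for that on Slc17a7. Members near 1 CPM rest on few reads, and 70 to 78 genes qualified under other level minimums. No paired analysis was possible because each animal gave 1 library and replicate numbers pair no samples.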
